A study of Saccharomyces cerevisiae with 12 samples.

Results

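The genes described here are 43 nuclear genes of the yeast mitochondrial respiratory chain and ATP synthase. They were chosen by name, from a list of systematic identifiers, and no measured value entered that list. Earlier results of these data were known when it was drawn up. The list held the 3 NADH dehydrogenases, 4 subunits of complex II, 9 of complex III, the 2 isoforms of cytochrome c, 9 genes of complex IV, 13 of the ATP synthase and the 3 small proteins INH1, STF1 and STF2. Each of the 43 was among the 7126 rows of the counts table, and each passed the filter on low counts that left 6040 genes. RNA-seq had been done in Saccharomyces cerevisiae BY4741 cells of mating type MATa, which carry his3-delta 1 and leu2-delta 0, with met15-delta 0 and ura3-delta 0. The wild type carried SPT4-TAP::kanMX4 and the mutant SPT4(T42A/S43A)-TAP::kanMX4, named Spt4-AA here, so both strains held the tag, the kanMX4 marker and the 4 marker mutations. In the mutant, Thr and Ser residues of the elongation factor Spt4, studied as a site for the stress-activated kinase Hog1, were changed to alanine. Log-phase cells on YPD at 30°C were collected unstressed or at 15 min of 0.4 M NaCl. Each of the 4 groups had 3 biological replicates, 12 libraries in all. How many independent isolates of each strain were used is not given in the sources used here.

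In the respiratory chain, electrons from NADH and succinate pass through ubiquinone to complex III, then by cytochrome c to complex IV, which reduces oxygen, while complexes III and IV pump the protons that drive the ATP synthase. Budding yeast has no proton-pumping complex I and uses single-protein NADH dehydrogenases in its place. On glucose many of these genes are repressed, and the Hap2/3/4/5 complex activates them when glucose is low or absent. Cytochrome c and subunit V of complex IV each come in a pair of isoforms, one used with oxygen and one when oxygen is scarce.

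The libraries held 12903162 to 21909524 counts on genes, of which the 43 genes took 0.382 to 0.4% in the unstressed wild type and 0.962 to 1.06% upon NaCl. In Spt4-AA the share was 0.356 to 0.386% without stress and 0.622 to 0.751% upon NaCl. Levels are given as normalized CPM, counts brought to a common library size by the TMM method. A log2FC is the log2 fold change of the edgeR fit, and every adjusted p comes from the quasi-likelihood test of edgeR, adjusted over the 6040 genes after Benjamini and Hochberg. The 5 genes that mark haploid a cells had 15164 to 39364 counts together and the 3 alpha-cell genes 52 to 121, while LEU2, MET17 (also named MET15) and URA3, absent from the genotype, had at most 2 counts together in 11 libraries and 139 in replicate 2 of Spt4-AA upon NaCl. Replicates 1 and 2 of that group carry library numbers that stand apart from the run of the other 10, and the difference between replicates was largest between these 2 libraries and replicate 3. A fit with a term for those library numbers leaves replicate 3 as the lone stressed Spt4-AA library, whose spread is then taken to be like that of the other groups. Values are without the term unless it is named. The scaling also bears on every level. The median log2FC of all genes upon NaCl was 0.03 in the wild type and 0.01 in Spt4-AA with TMM, 0.38 and 0.16 with library totals alone, and -0.49 and -0.81 when libraries were scaled to ENO1, an enolase gene. ENO1 itself rose under TMM, with a log2FC of 0.53 in the wild type (adjusted p = 0.0156) and 0.89 in Spt4-AA (adjusted p = 0.00045). The alanine changes themselves cannot be seen in counts per gene.

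The upstream sequences of the isoform pairs of the chain are shown because CYC7, NDE2 and COX5B, with 3 of the 4 largest log2FC values upon NaCl in the wild type, are each 1 of a pair. Each is the R64 genome sequence from 250 to 86 bases before the start codon, written 5′ to 3′ on the strand of the gene. Capitals mark CCAAT (the core of the Hap2/3/4/5 site), AGGGG (the stress response element) and ATTGTT (the core of the Rox1 site), on either strand, so that each may stand as its reverse complement. The stretches lie at chrX:526085-526249 on the plus strand, chrV:80063-80227 on the minus strand, chrXIV:531475-531639 on the plus strand, chrIX:154972-155136 on the plus strand, chrXIII:556561-556725 on the minus strand and chrIV:302961-303125 on the plus strand.
CYC1: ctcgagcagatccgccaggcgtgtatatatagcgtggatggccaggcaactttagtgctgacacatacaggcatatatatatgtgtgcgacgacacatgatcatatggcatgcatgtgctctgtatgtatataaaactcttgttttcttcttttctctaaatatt
CYC7: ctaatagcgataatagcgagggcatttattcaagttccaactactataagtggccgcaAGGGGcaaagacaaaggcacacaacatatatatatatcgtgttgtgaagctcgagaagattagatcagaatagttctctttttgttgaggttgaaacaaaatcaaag
COX5A: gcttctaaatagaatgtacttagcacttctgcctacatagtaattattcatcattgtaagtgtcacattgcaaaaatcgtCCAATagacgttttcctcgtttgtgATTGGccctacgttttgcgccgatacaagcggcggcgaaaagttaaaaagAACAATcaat
COX5B: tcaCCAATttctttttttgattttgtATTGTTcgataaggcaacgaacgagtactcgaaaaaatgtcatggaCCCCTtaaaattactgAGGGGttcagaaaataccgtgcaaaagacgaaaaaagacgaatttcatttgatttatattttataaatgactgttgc
NDE1: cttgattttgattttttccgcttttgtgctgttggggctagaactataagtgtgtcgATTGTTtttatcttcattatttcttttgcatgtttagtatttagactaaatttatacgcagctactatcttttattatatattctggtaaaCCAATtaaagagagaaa
NDE2: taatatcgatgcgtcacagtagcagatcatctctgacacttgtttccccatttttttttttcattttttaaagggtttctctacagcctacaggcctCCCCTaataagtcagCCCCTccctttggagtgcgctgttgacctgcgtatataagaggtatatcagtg

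Over the whole window from 250 before to 50 after the start codon, the AGGGG letters stood upstream of CYC7 (192 bases before the start codon), COX5B (178 and 162) and NDE2 (153 and 138), and not in the windows of CYC1, COX5A and NDE1. CCAAT stood upstream of COX5A (170 and 145), COX5B (247 and 72) and NDE1 (102 and 9), and ATTGTT upstream of COX5A (95), COX5B (224 and 81) and NDE1 (193). Over windows of 300 bases, from 250 before to 50 after the start codon, CCAAT was found in 35 of the 43 genes (81.4%) against 43.3% of 6007 promoters, AGGGG in 22 (51.2%) against 21.6%, and ATTGTT in 18 (41.9%) against 35.2%. A match is a description of letters and was not tested for binding.

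Upon NaCl the wild type raised most of the chain, with large differences between its complexes. At least 2-fold rises were called for 19 of the 43 genes (18.3% of all genes tested) and a 2-fold fall for 1, CYC1 (18.7% of all genes). By adjusted p alone 36 genes rose (36.4% of all genes) and 2 fell, CYC1 and NDE1 (33.9%). The median log2FC was 0.76, beside 0.03 over all genes tested, and it ran from -2.71 (CYC1) to 7.17 (CYC7). The 2-fold rises fell on all 4 genes of complex II, 8 of 9 of complex III, 2 of 3 NADH dehydrogenases, 1 of 2 cytochrome c genes, 1 of 9 genes of complex IV and all 3 of the inhibitor and stabilizing proteins, while the 13 ATP synthase genes had log2FC values of up to 0.76. With libraries scaled to ENO1, 19 genes rose by adjusted p (16.6% of all genes) and 4 fell (45.8%), and the median of each of the 7 groups of genes stayed above 0, that of the ATP synthase at 0.03.

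**Figure D1:**
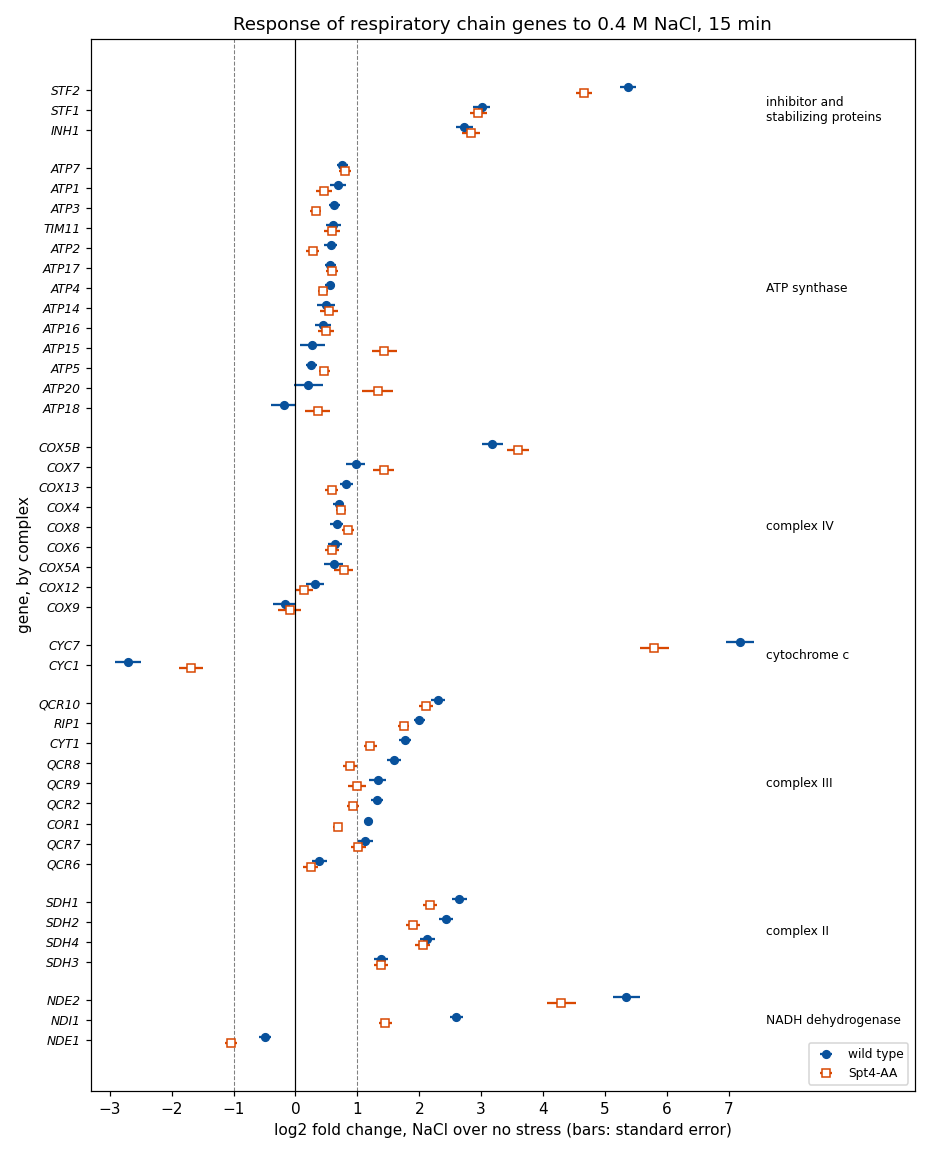
The log2 fold change upon NaCl (x axis) of each of the 43 genes (y axis, by complex) in the wild type (filled circles) and Spt4-AA (open squares), with standard errors from the edgeR fit (n = 3 in each group) and dashed lines at a 2-fold change. In the wild type, complexes II and III lie mostly to the right of the 2-fold line and most ATP synthase genes between 0 and that line. When libraries are scaled to ENO1, the medians in Spt4-AA turn below 0 for complex IV (-0.11) and the ATP synthase (-0.36).

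Among the NADH dehydrogenases, 1 of the 3 fell and the others rose. NDE1 (YMR145C, chromosome XIII, 554793 to 556475 in R64), the main enzyme for cytosolic NADH on the outer face of the inner membrane, had 455, 540.1 and 493 normalized CPM in the unstressed wild type and 336, 366 and 357 upon NaCl. The groups did not overlap, and NDE1 was lower upon NaCl (log2FC -0.49, standard error 0.10, adjusted p = 0.000513). NDE2 (YDL085W, chromosome IV, 303211 to 304848), its paralog, went from 1.33, 1.29 and 0.979 to 54.8, 52.8 and 39.6 normalized CPM (log2FC 5.34, standard error 0.21, adjusted p = 1.02e-11), so that its lowest stressed library stood far above its highest unstressed one. NDI1 (YML120C, chromosome XIII, 28266 to 29807), the matrix-facing enzyme, had 54.8, 60.6 and 57.1 without stress and 355, 343 and 349.9 upon NaCl (log2FC 2.60, standard error 0.10, adjusted p = 9.67e-12). Its groups were also fully apart.

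In Spt4-AA the levels of all 3 upon NaCl were below those of the wild type. NDE1 went from 436, 445 and 458 normalized CPM to 197, 211 and 242 (log2FC -1.04, adjusted p = 4.23e-07), and each stressed mutant library was below each stressed wild type library. The log2FC of -1.04 was close to the 2-fold line and was -0.97 without replicate 1 of Spt4-AA upon NaCl, -0.88 with the term for library numbers and -0.88 with library totals alone. NDE2 rose from 0.821, 0.700 and 1.04 to 15.8, 20.1 and 14.3 normalized CPM (log2FC 4.29, adjusted p = 5.76e-10), and NDI1 from 52.8, 51.2 and 58.1 to 130.2, 144 and 169 (log2FC 1.45, adjusted p = 9.33e-09). The stressed libraries of the 2 strains did not overlap for either gene.

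Complex II, succinate dehydrogenase, feeds electrons from the TCA cycle into the chain, and all 4 of its genes rose in both strains. SDH1 (YKL148C, chromosome XI, 169207 to 171129), the flavoprotein, had 61.0, 75.9 and 61.7 normalized CPM in the unstressed wild type and 436, 416 and 395 upon NaCl (log2FC 2.65, standard error 0.12, adjusted p = 3.01e-11). In Spt4-AA its values were 64.1, 72.9 and 64.2 without stress and 265, 326 and 319.6 upon NaCl, and these stressed libraries were all below those of the wild type. SDH2 (YLL041C, chromosome XII, 53131 to 53931), the iron-sulfur subunit, showed the same order, with 299.7, 280.1 and 259.5 normalized CPM in stressed wild type cells and 166, 179.7 and 200.3 in stressed Spt4-AA, from 47.1, 54.2 and 53.5 and 43.8, 46.2 and 56.3 without stress. Its log2FC was 2.44 in the wild type (adjusted p = 6.78e-11) and 1.90 in Spt4-AA (adjusted p = 1.72e-09).

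The membrane anchor subunits of complex II differed less between the strains. SDH4 rose from 72.0, 79.6 and 88.6 to 376, 384 and 294 normalized CPM in wild type cells, and in Spt4-AA from 68.4, 77.7 and 79.8 to 307, 345 and 284 (log2FC 2.13 and 2.05). SDH3, the most abundant of the 4 without stress and per kb of coding length, had the smallest rise, from 164, 175 and 168 to 448, 479 and 393 in the wild type and from 163, 169 and 179 to 459, 494 and 380.0 in the mutant. Its log2FC was 1.38 in both strains, and for SDH3 and SDH4 the stressed libraries of the strains overlapped.

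Complex III, the cytochrome bc1 complex, rose as a nearly complete set in the wild type. QCR10 (YHR001W-A, chromosome VIII, 107826 to 108122), a small subunit whose gene holds 1 intron, rose most, from 16.1, 18.8 and 20.4 to 90.7, 94.8 and 87.6 normalized CPM (log2FC 2.30, standard error 0.11, adjusted p = 9.38e-11). RIP1, the Rieske iron-sulfur protein, had 66.8, 71.7 and 65.3 without stress and 265, 279 and 273 upon NaCl (log2FC 2.00, adjusted p = 2.42e-11). For both genes the lowest stressed library was above 3 times the highest unstressed one. CYT1, cytochrome c1, rose from 74.0, 67.7 and 58.4 to 211, 230.1 and 239 (log2FC 1.77, adjusted p = 6.23e-10) and QCR8 from 35.9, 40.1 and 44.7 to 129.5, 127 and 108 normalized CPM (log2FC 1.59, adjusted p = 8.78e-09). The core subunits rose less, COR1 from 119.7, 125 and 122 to 262, 282 and 285 (log2FC 1.18) and QCR2 from 109.8, 109 and 104 to 242, 270.2 and 290.5 (log2FC 1.32). None of these groups overlapped. QCR9 went from 17.4, 18.3 and 18.0 to 41.2, 40.4 and 53.5 (log2FC 1.33) and QCR7 from 55.8, 56.3 and 53.2 to 132, 117 and 113 (log2FC 1.13). QCR6, the acidic hinge subunit, was the exception, with 45.7, 42.98 and 43.5 and 49.7, 56.5 and 66.0 normalized CPM, a log2FC of 0.38 (adjusted p = 0.0103) that became -0.13 when libraries were scaled to ENO1.

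In Spt4-AA each of the 9 complex III genes had a smaller log2FC than in the wild type, and 4 of 9 instead of 8 rose at least 2-fold. The count depends on the threshold, since the median log2FC in Spt4-AA was 0.991, just under the 2-fold line, beside 1.33 in the wild type. The difference in response passed the test for 4 of the 9. Upon NaCl the mutant had 144, 143 and 149 normalized CPM of CYT1, 75.0, 70.2 and 78.7 of QCR8 and 202, 194 and 209 of COR1, from 68.3, 61.8 and 57.9, 36.3, 45.4 and 40.5 and 127, 126 and 126 without stress. All stressed mutant libraries of these 3 genes were below all stressed wild type libraries. The log2FC in Spt4-AA was 1.21 for CYT1, 0.88 for QCR8, 0.68 for COR1 and 0.93 for QCR2. QCR10 and RIP1 had the highest log2FC of the complex here too, with 75.8, 68.3 and 63.97 and 196, 198 and 209 normalized CPM (log2FC 2.1 and 1.75). QCR7 sat at the 2-fold line (log2FC 1.02, with 118, 108 and 79.1 normalized CPM upon NaCl) and was below it without replicate 3 of unstressed Spt4-AA (0.99) and without replicate 1 (0.91) or 2 (0.97) of Spt4-AA upon NaCl. For QCR7 it was also below that line with the term for library numbers (0.66), with length offsets (0.96) and with ENO1 scaling (0.15). With libraries scaled to ENO1 the median log2FC of the complex in Spt4-AA was 0.15 and that of COR1 was -0.14.

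Cytochrome c, the carrier between complexes III and IV, was the point of the widest opposite change. CYC1 (YJR048W, chromosome X, 526335 to 526664), iso-1-cytochrome c, the form of oxygenated cells, had 41.8, 47.3 and 46.4 normalized CPM in the unstressed wild type and 8.18, 6.70 and 5.84 upon NaCl (log2FC -2.71, standard error 0.21, adjusted p = 1.63e-08). CYC7 (YEL039C, chromosome V, 79636 to 79977), iso-2-cytochrome c, known as the form of oxygen-poor cells, had 16, 18 and 10 counts without stress, which are 1.18, 0.932 and 0.612 normalized CPM, and 134, 118 and 141 normalized CPM upon NaCl (log2FC 7.17, standard error 0.23, adjusted p = 8.04e-13). The 2 genes thus changed places, with no overlap in either. In Spt4-AA the exchange was in the same direction and smaller. CYC1 went from 44.5, 47.9 and 47.0 to 14.9, 19.3 and 9.49 normalized CPM (log2FC -1.68, adjusted p = 2.48e-06) and CYC7 from 0.379, 0.778 and 1.21 to 48.6, 39.5 and 38.7 (log2FC 5.80, adjusted p = 2.81e-11). Each stressed mutant library was above the wild type for CYC1 and below it for CYC7. Within the mutant, replicates 1 and 2 held more CYC1 than replicate 3.

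In complex IV, the terminal oxidase, 7 of 9 genes rose by adjusted p in each strain, but the rise passed 2-fold only for COX5B in the wild type and for COX5B and COX7 in Spt4-AA, and in Spt4-AA the median of the complex turned from 0.74 to -0.11 with libraries scaled to ENO1. COX5B (YIL111W, chromosome IX, 155222 to 155765), the isoform of subunit V used at low oxygen, rose from 12.9, 16.5 and 17.4 to 169, 138 and 118 normalized CPM in the wild type (log2FC 3.18, standard error 0.17, adjusted p = 3.29e-10) and from 8.91, 10.8 and 10.8 to 136, 134 and 97.4 in Spt4-AA (log2FC 3.60, adjusted p = 2.18e-10). Unstressed libraries of the mutant were all below those of the wild type, but this difference did not pass the test (log2FC -0.63, adjusted p = 0.209). COX5A (YNL052W, chromosome XIV, 531725 to 532186), the aerobic isoform, had 84.5, 103 and 92.9 normalized CPM without stress and 158, 142 and 130.0 upon NaCl in the wild type (log2FC 0.62, adjusted p = 0.00188), and 106, 119.7 and 110.2 and 203, 231 and 141 in Spt4-AA (log2FC 0.78, adjusted p = 0.000333).

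The small structural subunits of complex IV showed the range of the rest. COX7 had 14.5, 9.27 and 13.0 normalized CPM in the unstressed wild type and 24.2, 23.9 and 23.6 upon NaCl (log2FC 0.97), against 9.54, 8.48 and 9.02 and 25.6, 20.3 and 26.7 in Spt4-AA (log2FC 1.42). COX9 was the lowest of the complex in the wild type, with 60.4, 74.7 and 61.2 and 61.5, 51.4 and 60.9 normalized CPM (log2FC -0.18, adjusted p = 0.415, and 0.17 with library totals alone). In Spt4-AA it had 80.4, 67.2 and 64.8 without stress and 75.5, 81.3 and 43.2 upon NaCl, the last of these in replicate 3, and with the term for library numbers its log2FC of -0.09 (adjusted p = 0.682) became -0.72 (adjusted p = 0.00202). The remaining 5 genes, COX4, COX6, COX8, COX12 and COX13, had log2FC values of 0.32 (COX12, adjusted p = 0.0672) to 0.82 (COX13) in the wild type.

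The ATP synthase, with the highest summed level of the complexes over its 13 genes, rose less than complexes II and III. By adjusted p 10 of 13 genes rose in the wild type (36.4% of all genes tested) and 12 of 13 in Spt4-AA (34.9%). The median log2FC was 0.56 and 0.49, which became 0.03 and -0.36 with libraries scaled to ENO1. ATP7, a stator subunit, rose most in the wild type, from 90.2, 85.8 and 88.2 to 161, 154 and 132 normalized CPM (log2FC 0.76, standard error 0.09, adjusted p = 3.43e-06). The catalytic subunits ATP1 and ATP2 had a log2FC of 0.69 and 0.57 there. ATP18, a membrane subunit, had 70.7, 59.3 and 56.9 normalized CPM without stress and 53.1, 55.6 and 55.0 upon NaCl in the wild type, the lowest log2FC of the complex (log2FC -0.19, adjusted p = 0.422, and 0.15 with library totals alone).

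A pair of ATP synthase genes rose at least 2-fold in Spt4-AA and in neither case passed the test in the wild type. ATP15 (YPL271W, chromosome XVI, 30079 to 30267), the epsilon subunit of the central stalk, had 58.6, 47.2 and 46.9 normalized CPM in the unstressed wild type and 58.5, 62.6 and 63.5 upon NaCl (log2FC 0.28, standard error 0.20, adjusted p = 0.242). In Spt4-AA it had 45.9, 36.3 and 37.1 without stress and 124, 134 and 65.5 upon NaCl (log2FC 1.44, standard error 0.21, adjusted p = 2.42e-05), and replicate 3 was close to the wild type and well below replicates 1 and 2. This log2FC of ATP15 was 0.72 with the term for library numbers (adjusted p = 0.000918), no longer a 2-fold rise. ATP20 (YPR020W, chromosome XVI, 599870 to 600217), subunit g, with a role in dimers of the enzyme, had 12.1, 11.3 and 13.8 and 10.9, 13.3 and 18.7 in the wild type and 7.52, 9.81 and 6.76 and 27.7, 15.5 and 17.1 in the mutant (log2FC 0.21 and 1.33, the latter 1.09 with the term). The stressed libraries of the 2 strains overlapped for ATP20 and not for ATP15.

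The small proteins that bind the ATP synthase rose far more than the enzyme. INH1 (YDL181W, chromosome IV, 135179 to 135436), which blocks ATP hydrolysis by the F1 part when the proton gradient is lost, rose from 9.24, 10.9 and 13.2 to 76.8, 72.0 and 72.5 normalized CPM in the wild type (log2FC 2.73, standard error 0.13, adjusted p = 1.08e-10) and from 8.34, 8.64 and 8.32 to 64.6, 65.0 and 51.2 in Spt4-AA. STF1 (YDL130W-A, chromosome IV, 229171 to 229431), a paralog with the same action, rose from 8.28, 11.03 and 11.4 to 92.7, 79.2 and 77.2 (log2FC 3.01, standard error 0.14, adjusted p = 3.69e-11) and from 7.65, 7.86 and 9.19 to 65.5, 66.7 and 58.6. The rises of both genes were nearly equal in the strains (log2FC 2.83 and 2.95 in Spt4-AA). STF2 (YGR008C, chromosome VII, 508110 to 508364), which stabilizes the inhibited enzyme, rose from 11.9, 14.3 and 15.1 to 592, 541 and 578 normalized CPM in the wild type (log2FC 5.37, standard error 0.13, adjusted p = 6.28e-14) and from 9.23, 12.3 and 10.3 to 282, 270.3 and 249 in Spt4-AA (log2FC 4.66, adjusted p = 4.96e-13). Every stressed mutant library held less than every stressed wild type library, and STF2 was the most abundant of the 43 transcripts per kb in both stressed groups.

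Ratios between the isoforms of a pair within a library need no scaling between libraries, and they are given per kb of coding length. CYC1 over CYC7 had a mean ratio of 56.0 in the unstressed wild type (36.6 to 78.7) and 0.0551 upon NaCl (0.0430 to 0.0633). In Spt4-AA the mean ratio was 75.2 without stress (40.1 to 121.6) and 0.36 upon NaCl (0.254 to 0.506), so iso-2 exceeded iso-1 in all 6 stressed libraries. NDE1 over NDE2 went from 409.5 (332.6 to 489.9) to 7.16 (5.98 to 8.77) in the wild type and from 521.1 (428.7 to 618.1) to 12.9 (10.2 to 16.5) in Spt4-AA, and NDE1 stayed the more abundant in every library. COX5A over COX5B went from 5.97 (5.26 to 6.48) to 1.01 (0.924 to 1.08) in the wild type and from 10.9 (10.1 to 11.8) to 1.54 (1.43 to 1.70) in Spt4-AA. The 2 isoforms of subunit V were thus level in the stressed wild type, and COX5A stayed ahead in the stressed mutant. INH1 over STF1, with means of 1.10, 0.903, 1.04 and 0.956 in the same order of groups, stayed near 1.

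For CYC1 over CYC7, NDE1 over NDE2 and COX5A over COX5B the ratios of stressed and unstressed libraries did not overlap in either strain, nor did those of the stressed strains. COX5A over COX5B was also higher without overlap in the unstressed mutant, by 0.88 on the log2 scale. A two-sided exact permutation test of 3 libraries against 3 gives p = 0.1 for each of these, the smallest p that the design allows, and 0.145 after Benjamini-Hochberg adjustment over the 16 comparisons, so this test could not pass 0.05. The log2 ratio of CYC1 over CYC7 was higher by 2.67 in stressed Spt4-AA than in the stressed wild type, that of NDE1 over NDE2 by 0.84 and that of COX5A over COX5B by 0.61. The unstressed strains overlapped in CYC1 over CYC7 (exact permutation p = 0.6) and in NDE1 over NDE2 (exact permutation p = 0.2).

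**Figure D2:**
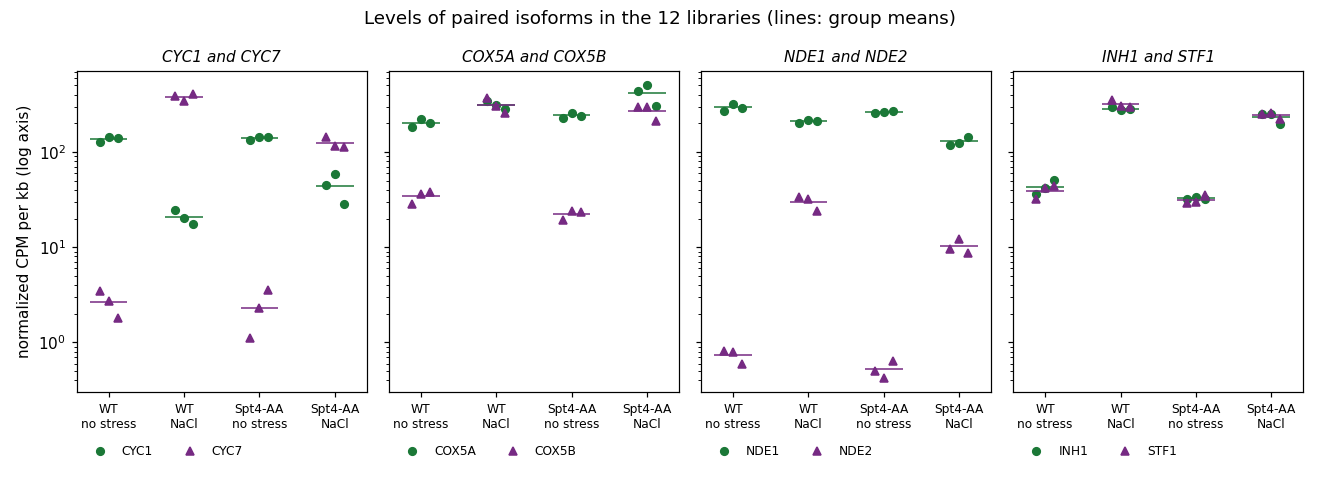
Normalized CPM per kb of coding length (y axis, log scale) of the genes of 4 isoform pairs in each of the 12 libraries, by group (x axis), with lines at the group means (n = 3). CYC7 crosses above CYC1 upon NaCl in both strains, COX5B reaches COX5A in the stressed wild type, NDE2 stays below NDE1 and INH1 and STF1 move together.

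Per kb of coding length, ATP2, the beta subunit of the ATP synthase, had the highest level of the 43 in the unstressed groups, at 638 ± 49.5 normalized CPM per kb (SD, n = 3) in the wild type and 624.5 ± 20.6 in Spt4-AA, before COX9 (363 and 393) and ATP18 (346 and 324). The ranges of COX9 and ATP18 overlapped in the unstressed wild type. NDE2 (0.734 and 0.521) and CYC7 (2.66 and 2.31) were the lowest. Upon NaCl, STF2 led with 2237 in the wild type and 1048 in Spt4-AA, followed by ATP2 (948 and 759) and SDH3 (737 and 744.5). CYC1 was the lowest of the 43 in the stressed wild type (20.9 normalized CPM per kb) and NDE2 in stressed Spt4-AA (10.2).

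Summed over genes, the 43 transcripts held 4121 to 4361 normalized CPM in the unstressed wild type and 8509 to 8692 upon NaCl, against 3955 to 4091 and 6444 to 7106 in Spt4-AA. Stressed libraries of the mutant were all below those of the wild type, and without stress the mutant libraries were all below too, by a small margin. The unstressed sums overlapped with library totals alone, at 3822 to 3996 in the wild type and 3564 to 3862 in Spt4-AA. They also overlapped relative to ENO1. Under ENO1 scaling the sum fell slightly upon NaCl in Spt4-AA, by 0.08 on the log2 scale, and not in the wild type. The mean sum of complex II was 367 without stress and 1486 upon NaCl in wild type cells, 361 and 1242 in Spt4-AA, and that of complex III 540.2 and 1479 against 533 and 1104. For complex IV the stressed strains overlapped, with 782 to 873 in the wild type and 689 to 895 in Spt4-AA, the lowest in replicate 3. The NADH dehydrogenases rose in sum in the wild type, from 555 to 751, and fell in the mutant, from 501 to 382. Under ENO1 scaling the wild type rise became a fall of 0.08 on the log2 scale. Both cytochrome c genes together went from 46.1 to 138 normalized CPM in wild type cells and, in Spt4-AA, from 47.3 to 56.9, where ENO1 scaling turned the change to -0.58 on the log2 scale. These sums have no test.

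**Figure D3:**
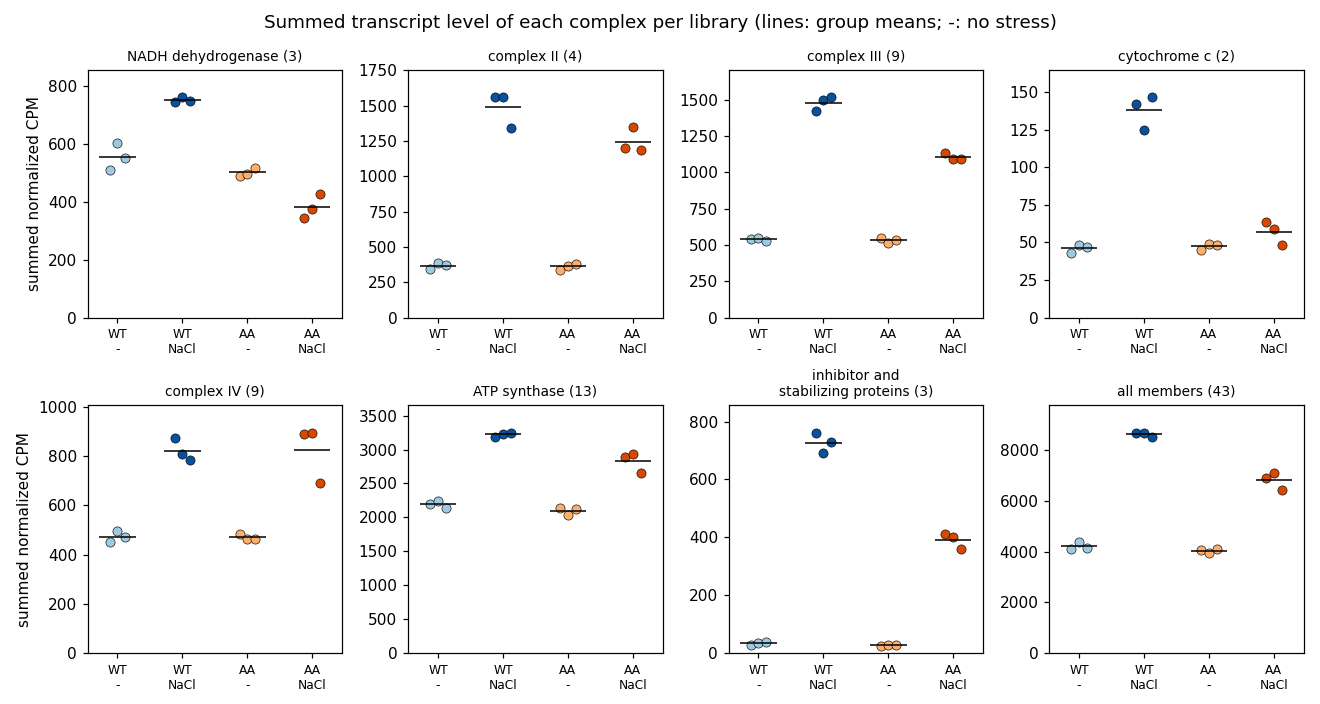
Summed normalized CPM (y axis, from 0) of the genes of each complex in each of the 12 libraries, by group (x axis, WT wild type, AA Spt4-AA), with lines at the group means (n = 3) and the number of genes in brackets. The stressed mutant libraries lie below the stressed wild type for complex III, cytochrome c, NADH dehydrogenases, the ATP synthase and the inhibitor proteins, and overlap it for complex IV and complex II. Summed per kb of coding length, the stressed strains also overlapped for the ATP synthase, with 3790 to 3839 in the wild type and 3249 to 4144 in Spt4-AA. With ENO1 scaling the rises in Spt4-AA of all members, cytochrome c, complex IV and the ATP synthase, and that of the NADH dehydrogenases in the wild type, turn to falls.

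In Spt4-AA, 18 of the 43 genes rose at least 2-fold upon NaCl (15.7% of all genes tested) and 2 fell, CYC1 and NDE1 (14.9%). By adjusted p alone 37 rose (34.9%) and the same 2 fell (33.4%), and the median log2FC was 0.85, beside 0.01 over all genes. With libraries scaled to ENO1, 14 rose by adjusted p (9.75% of all genes) and 8 fell (60.3%).

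Without stress the strains were not told apart in any of the 43 genes. By edgeR 0 were called higher or lower at 2-fold (0.182% and 0.298% of all genes) and 0 by adjusted p alone (0.265% and 0.563%), and DESeq2 also called 0. At an unadjusted p under 0.05 there were 7 of the 43 and 465 of all genes. The log2FC of Spt4-AA over the wild type ran from -0.63 (COX5B) to 0.26 (COX5A), and 33 of 43 were below 0, with a median of -0.09 beside -0.004 over all genes and a median standard error of 0.12.

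Upon NaCl, CYC1 was at least 2-fold higher in Spt4-AA than in the wild type (7.75% of all genes tested were called higher) and 4 genes were at least 2-fold lower, CYC7, NDE2, NDI1 and STF2 (3.2%). By adjusted p alone 3 were higher (24.3% of all genes), CYC1, ATP15 and COX5A, and 17 were lower (23.4%). The 17 were all 3 NADH dehydrogenases, 6 of 9 complex III genes, SDH1 and SDH2, CYC7, ATP2, ATP3 and ATP4, STF1 and STF2. CYC7 had the largest such difference (log2FC -1.63, standard error 0.15, adjusted p = 1.87e-06). NDE2 (log2FC -1.55, standard error 0.16, adjusted p = 4.55e-06), NDI1 (log2FC -1.24, standard error 0.10, adjusted p = 3.62e-07) and STF2 (log2FC -1.09, standard error 0.11, adjusted p = 2.41e-06) followed. Within the mutant group, replicate 3 was on the same side of the wild type for these 4 genes. With the term for library numbers, which leaves replicate 3 alone for this comparison, the log2FC was -1.75, -1.77, -1.05 and -1.20 in that order (4 of 43 called lower, beside 2.09% of all genes), and CYC1 (0.46, adjusted p = 0.107), ATP15 (0.09, adjusted p = 0.727) and COX5A (-0.02, adjusted p = 0.937) lost theirs. The 2-fold call of CYC1 (log2FC 1.07) was also lost without replicate 3 of the stressed wild type (0.96) and without replicate 2 of stressed Spt4-AA (0.82). The wild type libraries upon NaCl serve both this comparison and the wild type response, so the 2 are not independent.

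Between the strains the response to NaCl, tested as the difference of the 2 log2FC values, differed for 14 of the 43 genes. In 11 the log2FC of Spt4-AA was lower (11% of all genes tested) and in 3 it was higher (15%). The 11 were NDI1, NDE2, NDE1, CYC7, STF2, QCR8, CYT1, COR1, QCR2, SDH2 and SDH1, and the 3 were ATP15, ATP20 and CYC1. The largest differences were those of CYC7 (-1.38, standard error 0.42, adjusted p = 0.0279), ATP15 (1.16, 0.29, 0.00935), NDI1 (-1.15, 0.14, 5.86e-05), ATP20 (1.12, 0.34, 0.027), NDE2 (-1.05, 0.36, 0.0429) and CYC1 (1.03, 0.28, 0.0144). For CYC1 a positive difference is a smaller fall, since the gene fell in both strains. All 9 complex III genes had a difference below 0, from -0.72 (QCR8) to -0.11 (QCR7). For the 9 genes of complex IV the lowest adjusted p was 0.158 (COX7), and the values ran from -0.23 (COX13) to 0.45 (COX7), with a median of 0.09 that became -0.15 with library totals and -0.28 with ENO1 scaling.

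**Figure D4:**
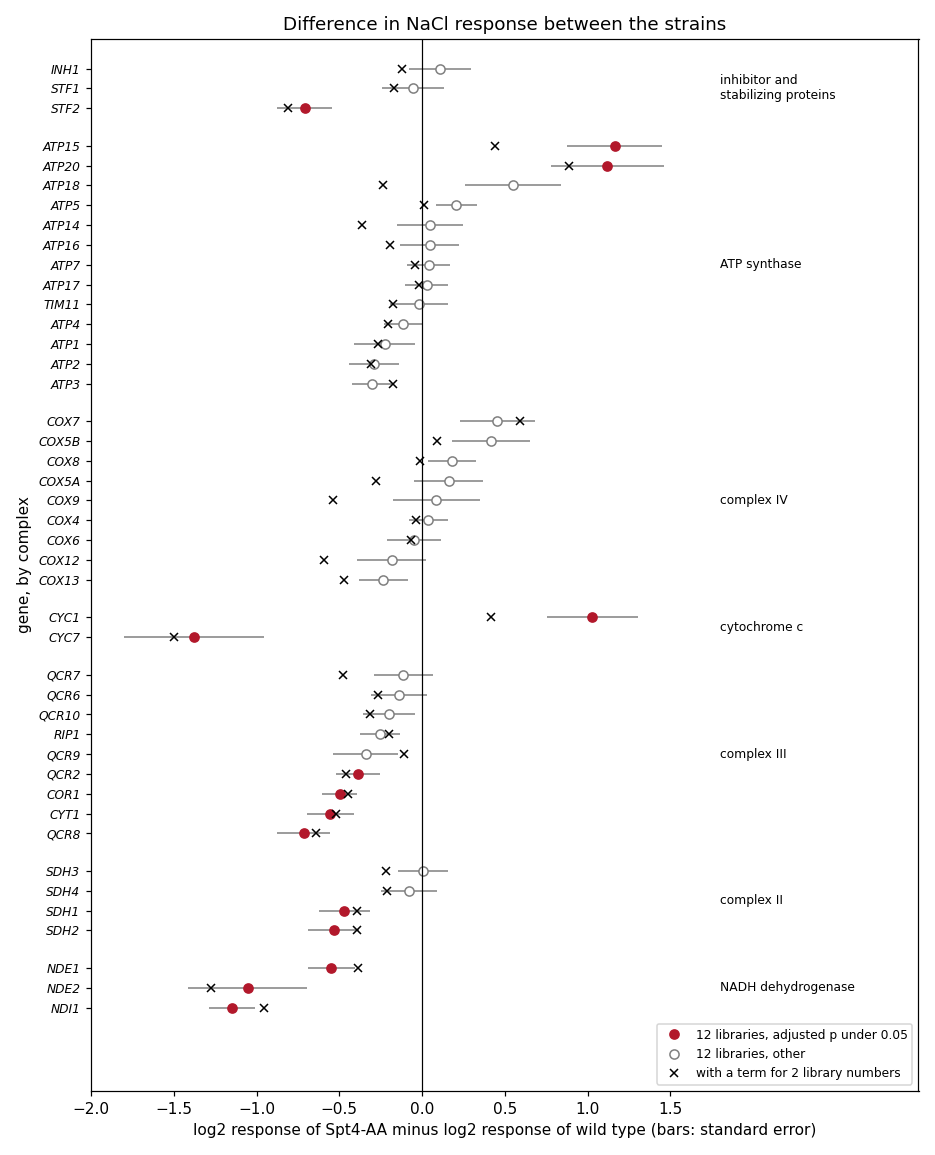
The log2 response to NaCl of Spt4-AA minus that of the wild type (x axis) for each of the 43 genes (y axis, by complex), with standard errors (n = 3 in each of the 4 groups), filled where the adjusted p was under 0.05, and crosses for the fit with a term for the 2 library numbers that stand apart. Filled points lie left of 0 for NADH dehydrogenases, complexes II and III, CYC7 and STF2, and the crosses of ATP15 and CYC1 lie closer to 0 than their points.

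The higher responses in Spt4-AA were set beside the library numbers, whose part in them was not tested. ATP15 had 124, 134 and 65.5 normalized CPM in replicates 1, 2 and 3 of stressed Spt4-AA, CYC1 14.9, 19.3 and 9.49 and ATP20 27.7, 15.5 and 17.1. Replicate 3 was the lowest of the 3 for ATP15 and CYC1, as it was for the uncalled ATP18 and COX9, and not for ATP20. With the term for library numbers the difference in response was 0.44 for ATP15 (adjusted p = 0.144), 0.89 for ATP20 (adjusted p = 0.165) and 0.42 for CYC1 (adjusted p = 0.265), so these 3 did not pass the edgeR test in that fit, in which 9.3% of all genes passed it as higher. Of the 11 lower responses, CYC7, COR1, QCR8, STF2, NDE2 and NDI1 passed the test with the term too and the other 5 did not (9 of 43 lower in that fit, beside 5.03% of all genes). NDE2 kept its call only where the library left out was wild type replicate 3 upon NaCl, or Spt4-AA replicate 2 or 3 upon NaCl. Leaving out 1 library ended the call of NDE2 in 9 of 12 fits, QCR2 in 9, SDH1 in 8, ATP20 in 6, CYC7 in 4 (replicate 2 or 3 of either unstressed group) and SDH2 in 3 (wild type replicate 1 or Spt4-AA replicate 3 without stress, or Spt4-AA replicate 1 upon NaCl), and those of NDI1, NDE1, STF2, QCR8, CYT1, COR1, ATP15 and CYC1 in none. The lower calls were fewest, at 6 of 43, without replicate 3 of unstressed Spt4-AA, and were 7 without wild type replicate 1 or 3 of the unstressed cells or Spt4-AA replicate 1 upon NaCl. Without replicate 3 of stressed Spt4-AA the higher calls were 6.

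The 43 genes are short, with a median coding length of 447 bases beside 1233 over the genes with a length, and length went with the strain difference across genes. Over 5726 genes Spearman's rho of coding length with the difference in response was -0.35, and with Spt4-AA over the wild type upon NaCl it was -0.32, as a description across genes that share their libraries. With an offset for length, 28 of the 43 were lower in stressed Spt4-AA by adjusted p (20.6% of all genes) in place of 17, and 5 of 43 had a difference in response above 0 in place of 17. The part of length in the values was not tested beyond this.

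Genes with and without the stress response element letters differed in their wild type response. The 22 with AGGGG in the window had a median log2FC of 1.73 and 14 rose at least 2-fold, while the 21 without it had a median of 0.63 and 5 such rises. Over all genes the medians were 0.63 with AGGGG and -0.09 without, and 37.7% and 12.6% rose at least 2-fold. The 35 genes with CCAAT had a median of 0.67 and the other 8 of 1.47, beside 0.07 and -0.01 over all genes. These are counts of letters in a window and carry no test.

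Among 11 regulators of these genes, 8 rose in the wild type by adjusted p (36.4% of all genes tested), 4 of them at least 2-fold (18.3%). The 4 were CAT8, an activator of genes for growth without glucose (log2FC 2.88), MSN4 and MSN2, which bind the stress response element (1.52 and 1.13), and HAP2, a subunit of the CCAAT-binding complex (1.32). In Spt4-AA the log2FC was 1.85, 0.83, 0.89 and 0.76 in that order. The difference in response was below 0 at an adjusted p under 0.05 for 6 of 11 (11% of all genes tested). HAP4, the activating subunit of the same complex, had a log2FC of 0.65 in the wild type and -0.14 in Spt4-AA (difference -0.79, adjusted p = 0.00695). SNF1, the kinase that lifts glucose repression, had 0.81 and 0.08 (difference -0.73, adjusted p = 0.0037), and MIG1, the glucose repressor, 0.18 and -0.56 (difference -0.74, adjusted p = 0.00101). The differences of HAP2, HAP4, MIG1 and SNF1 also passed the test with the term for library numbers, and those of CAT8 and MSN4 did not.

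Most assembly factors and further subunits of the complexes also rose in the wild type. Of 40 assembly factors 28 rose by adjusted p (36.4% of all genes tested). Their median log2FC was 0.61, and 10 rose at least 2-fold (18.3% of all genes). SDH6 (3.31) and SDH8 (1.62), factors of complex II, and COX20 (1.84), SCO2 (1.77) and SHY1 (1.60), factors of complex IV, had the largest values, followed by CBP4 (1.51), a factor of complex III, SDH5 (1.26), which acts on SDH1, and ATP10 (1.09), a factor of the ATP synthase. The difference in response passed the test for 5 of 40, 4 lower and 1 higher (11% and 15% of all genes tested). It was below 0 for SCO2, CBP4, ATP10 (-0.94) and SHY1, and above 0 for COX18 (0.67, adjusted p = 0.015), a gene named after its values were seen. Those of SCO2, CBP4 and ATP10 passed it with the term for library numbers too. Of 8 further subunits and isoforms 5 rose at least 2-fold (18.3% of all genes tested). They were COX26 (5.89), a small protein of the supercomplexes, and TMA10 (5.07), a paralog of STF2. The others were the SDH3 and SDH4 paralogs SHH3 (2.86) and SHH4 (2.50), and the SDH1 paralog YJL045W (1.56). COX26 and SHH3 were barely detected without stress, with means of 0.32 and 0.38 CPM in wild type cells. In unstressed Spt4-AA their means were 0.41 and 0.53 CPM, so the size of their rises is uncertain. RCF2, a factor of the supercomplexes of complexes III and IV, fell by 1.09 on the log2 scale.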

How the data were processed

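RNA-seq counts of yeast cells in 4 groups of 3 biological replicates were used. The authors mapped 50-base single-end reads to sacCer3 with TopHat2 2.1.0 and counted uniquely mapping reads per gene with featureCounts 1.5.1 and the R64 annotation, and they deposited whole-number counts without normalization. Whether the counting used strand is not given in the sources used here, though no gene of the reference overlaps any of the 43. Every 50-base stretch of their coding sequence is unique in the genome. No column was left unmapped.

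The TMM-normalized counts were fitted in edgeR 4.0.16 (R 4.3.3) after filterByExpr, using robust quasi-likelihood fits and 1 coefficient per group. Benjamini-Hochberg adjustment ran over the 6040 genes tested. A gene was called at an adjusted p under 0.05 and, between 2 groups, at least a 2-fold change. Total counts were 12903162 to 21909524 per library, which gave a median standard error of 0.12 for a log2FC of the 43 genes in a response and 0.17 for a difference in response. The replicates are biological as the study states. Replicates differed by more than sampling noise (chi-square per degree of freedom of at least 6.26), so each counted once. P-values measure the spread between these samples. Isoform ratios were compared by exact permutation tests.

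Replicate numbers showed no clear pairing of the samples, and the check of this is given with the alternatives. The alternatives were DESeq2 1.42.0, RLE size factors, library totals, scaling to ENO1, other filters, the replicate block, a term for 2 library numbers, the groups compared alone, a test against a 2-fold change, length offsets and each library left out. Coordinates, lengths and promoters came from the RefSeq R64 genome, the build of the files, and promoter windows were cut from that genome around the start codon because no promoter table was used. The fits were tested on simulated data. Per-library values are given for isoform pairs, called genes, the 6 largest differences in response and the extremes of each complex. Of the other pathway lists, members called at 2-fold or with a difference in response are named, up to 8 a list. The members and lists were chosen with earlier results of these data known.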

Additional observations from a re-analysis of the deposited data

Results flagged for a closer look

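The response to NaCl differed between the strains for 14 of the 43 genes, by edgeR's test of the difference itself with Benjamini-Hochberg adjustment. It was lower in Spt4-AA for 11 (11% of all genes tested) and higher for 3 (15% of all genes tested). The values are the log2 response of Spt4-AA minus that of the wild type. In the NADH dehydrogenases they were -1.15 for NDI1, -1.05 for NDE2 and -0.55 for NDE1. In complex II they were -0.53 for SDH2 and -0.47 for SDH1, and in complex III -0.72 for QCR8, -0.55 for CYT1, -0.50 for COR1 and -0.39 for QCR2. The cytochrome c genes had -1.38 for CYC7 and 1.03 for CYC1. STF2 had -0.71, and the ATP synthase genes ATP15 and ATP20 had 1.16 and 1.12. With the term for the 2 library numbers that stand apart, which leaves 1 stressed Spt4-AA library, CYC7, COR1, QCR8, STF2, NDE2 and NDI1 passed the test and the other 8 did not.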

How the results depend on the processing

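No call reported here was lost with DESeq2 or without a filter. With library totals alone, 1 gene fell in the wild type by adjusted p (22.6% of all genes tested) and 1 was called lower in Spt4-AA (12.4%). In stressed Spt4-AA against the wild type 0 were called higher (4.9%), and 29 were lower by adjusted p (30%). With ENO1 scaling, the wild type had 2 called lower (30.1% of all genes), 19 higher (16.6%) and 4 lower (45.8%) by adjusted p. Spt4-AA then had 10 called higher (6.44%), 14 higher (9.75%) and 8 lower (60.3%) by adjusted p. Stressed Spt4-AA against the wild type had 0 called higher (3.54%) and 1 by adjusted p (9.64%). The difference in response had 0 higher (5.5%) and 3 lower (3.61%). The log2 ratio of summed levels in Spt4-AA reversed to -0.08 for all 43, -0.41 for the ATP synthase, -0.047 for complex IV and -0.58 for cytochrome c, and that of the NADH dehydrogenases in the wild type to -0.079. With at least 10 counts in every library, CYC7 and NDE2 were not tested and 2 genes were called lower in stressed Spt4-AA (150 of 5627 genes tested). With the term for library numbers, the median log2FC of the 43 genes in Spt4-AA was 0.71, beside 0.03 over all genes. For stressed Spt4-AA against the wild type it was -0.34, and for the difference in response -0.235, beside -0.01 over all genes in both. Against a 2-fold change, 1 was called lower in Spt4-AA (583 of 6040 genes), and 0 higher and 2 lower in stressed Spt4-AA (127 and 46 of 6040). With length offsets, 0 were called higher in stressed Spt4-AA (7.25% of all genes) and 28 were lower by adjusted p (20.6%). RLE size factors ended the differences in response of QCR2, SDH1 and NDE2. Length offsets ended those of SDH1, ATP20 and NDE2, and library totals alone that of ATP20. The causes were not tested.

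With 1 library left out, the difference in response had 2 to 6 genes higher and 6 to 12 lower. Spt4-AA had 1 to 2 called lower, and stressed Spt4-AA against the wild type 0 to 2 called higher and 2 to 6 higher by adjusted p. The log2 ratio of CYC1 over CYC7 between the unstressed strains ran from -0.076 to 0.724 and that of INH1 over STF1 from -0.14 to 0.015. Correlations of same-numbered libraries ran from -0.37 to 0.36 and those of differently numbered libraries from -0.47 to 0.45. No pairing by number was seen, though 3 libraries per group are too few to exclude it. With the replicate number as a block, the difference in response of QCR2 was -0.39 and no longer passed the test, and no other call reported here was lost. Among the 43 genes, depth limits CYC7 and NDE2, which had 6 to 25 counts in unstressed libraries. Outside them it also limits COX26 and SHH3, which were barely detected without stress. The 3 libraries of each group limit the rest.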

Other observations

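The genes that feed the chain with electrons and substrates also rose upon NaCl. Of 11 TCA cycle genes 10 rose in the wild type by adjusted p (edgeR, Benjamini-Hochberg adjusted over all genes tested), beside 36.4% of all genes. At least 2-fold rises were called for 7 of them (18.3% of all genes). CIT1, the mitochondrial citrate synthase, rose most (log2FC 3.12, adjusted p = 7.14e-13), followed by MDH1, the mitochondrial malate dehydrogenase (1.85, adjusted p = 3.45e-11), and KGD1, a subunit of the 2-oxoglutarate dehydrogenase (1.57, adjusted p = 7.51e-10). The other 4 were IDH2 (1.56), a subunit of isocitrate dehydrogenase, LSC2 and LSC1 (1.49 and 1.08), subunits of succinyl-CoA ligase, and KGD2 (1.18), a further subunit of the 2-oxoglutarate dehydrogenase. In Spt4-AA all 11 rose by adjusted p (34.9% of all genes) and 4 at least 2-fold (15.7%). The log2FC there was 2.67 for CIT1, 1.12 for MDH1 and 0.93 for KGD1. The difference in response passed the test for 4 of 11, all below 0 (11% of all genes), from -0.74 (MDH1) to -0.42 (LSC2). With the term for library numbers it was -0.74 for MDH1, -0.49 for KGD1, -0.40 for CIT1 and -0.36 for LSC2. Those of CIT1 and LSC2 did not pass the test in that fit, which leaves 1 stressed Spt4-AA library.

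The other electron donors of the chain, CYB2 (lactate to cytochrome c), GUT2 (glycerol 3-phosphate to ubiquinone) and DLD1 (lactate), rose at least 2-fold in both strains. CYB2 had a log2FC of 3.54 in the wild type and 2.35 in Spt4-AA (difference -1.19, adjusted p = 0.000949), and GUT2 3.49 and 2.21 (difference -1.27, adjusted p = 2.11e-05). For DLD1 the values were 1.44 and 1.27 (difference -0.17, adjusted p = 0.452). The differences of CYB2 and GUT2 passed the test with the term for library numbers too.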
